A study of Mus musculus with 13 samples.

Results

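Gimap1, Gimap3, Gimap4, Gimap5, Gimap6, Gimap7, Gimap8 and Gimap9 are the mouse genes for the GTPases of immunity-associated proteins and lie side by side on chromosome 6. They make up 8 of the 24072 RefSeq rows of the count tables, found by matching each row's RefSeq identifier to its gene symbol. The family was chosen by a measured value, the high Gimap4 count of 1 of the 3 sorted groups, Ly6D+Gfra2+, so the levels in that group and both comparisons that contain it are given as a description, with no p-value.

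All libraries held total RNA from bone marrow of WT C57BL/6 mice, with no agent or allele named for any group. They came from CLP, the common lymphoid progenitors that lie upstream of B, T and innate lymphoid cells, sorted by flow cytometry on surface Ly6D, a mark of B-lineage bias at that stage, and on Gfra2, which serves with Ret as the receptor of neurturin. There were 3 libraries of Ly6D+Gfra2+ cells (replicates 4, 5 and 6), 4 of Ly6D+Gfra2- cells (replicates 1, 2, 5 and 6) and 6 of Ly6D-Gfra2- cells (replicates 1 to 6). The labels give neither age nor whether libraries came from separate or pooled animals, so every p-value here measures only the spread between these libraries.

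GIMAP proteins share a GTP-binding domain of the AIG1 type, related to that of septins, and several are anchored in membranes of the lysosome, the Golgi or the endoplasmic reticulum. They are best known in T and B lymphocytes, where the loss of single members shortens cell survival: Gimap5 loss in rats and mice and Gimap1 loss in mice both deplete mature lymphocytes. Reported activities include control of cell death next to Bcl2 family proteins, autophagy and lysosome function, and the proteins pair with each other through their GTP-binding domains.

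Library totals were between 6892728 and 23705975 counts, and between 9287598 and 9771228 in Ly6D+Gfra2+. At these depths 3 counts, the limit that a count of 0 allows, correspond to between 0.133 and 0.389 CPM (counts per 1000000 of the TMM-scaled library), for counting error only. A count was found for 10837 to 12369 genes in Ly6D+Gfra2+ libraries, for 11636 to 13364 in Ly6D+Gfra2- libraries and for 12904 to 13969 in Ly6D-Gfra2- libraries. Each library's name starts with P or T, which the labels do not explain. The T names are those of all 3 Ly6D+Gfra2+ libraries, of replicates 5 and 6 in Ly6D+Gfra2- and of replicates 4 to 6 in Ly6D-Gfra2-, and the others are P. The library labelled Ly6D-Gfra2- replicate 3 went against its label, with 213 CPM of Ly6d where the other Ly6D-Gfra2- libraries had 0.622 to 8.29 CPM, so results are also given without it.

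All 11 listed CLP markers, among them Flt3, Il7r, Rag1 and Dntt, were detected and passed the count filter. The list includes the sort genes Ly6d and Gfra2, and a gene can pass the filter through the group where it is high. Gfra2 was at 286 to 514 CPM in Ly6D+Gfra2+, 0.195 to 14.7 CPM in Ly6D+Gfra2- and 0 to 5.49 CPM in Ly6D-Gfra2-. Passing the filter thus does not show that each group fitted the label. Mature T cells are the best-known site of Gimap expression, and the defining T-cell genes Cd3g, Cd8a, Cd8b1 and Cd2 were at 0 in all 3 Ly6D+Gfra2+ libraries, where Cd3e reached at most 0.216 CPM and Cd3d at most 0.120 CPM. Other genes of that list were well detected there. Cd247 was at 61.5 to 151 CPM in Ly6D+Gfra2+ and 46.0 to 185 CPM in Ly6D-Gfra2-. Lck was at 50.5 to 86.5 CPM in Ly6D+Gfra2+, 33.0 to 131 CPM in Ly6D+Gfra2- and 43.5 to 96.4 CPM in Ly6D-Gfra2-. The summed level of the 15 T-cell markers with a row was 220.0 to 310.5 CPM in Ly6D+Gfra2+, 245 to 357 CPM in Ly6D+Gfra2- and 183 to 378 CPM in Ly6D-Gfra2-, and edgeR called 0 of the 8 tested in any comparison, with 0 at an unadjusted p under 0.05. DESeq2, which ran without the filter and tested 14, and limma voom, which tested 8, called 0 as well. At that unadjusted level they had at most 2 and 1 in a comparison. Markers of mature B cells summed, over 7 genes, to 260 to 526 CPM in Ly6D+Gfra2+, 138 to 363 CPM in Ly6D+Gfra2- and 90.2 to 251 CPM in Ly6D-Gfra2-, so that Ly6D+Gfra2+ was above Ly6D-Gfra2- and overlapped with Ly6D+Gfra2-. Within that list Ms4a1 was at 0 in every library. Markers of plasmacytoid dendritic cells were lowest in Ly6D+Gfra2+, with sums of 800.1 to 1188 CPM there, 3363 to 4241 CPM in Ly6D+Gfra2- and 1595 to 4202 CPM in Ly6D-Gfra2-. Those of granulocytes and monocytes summed to 198 to 466 CPM in Ly6D+Gfra2+, 428 to 585 CPM in Ly6D+Gfra2- and 643 to 1429 CPM in Ly6D-Gfra2-. Endothelium, which also expresses Gimap genes, had marker sums of 235 to 294 CPM in Ly6D+Gfra2+, 294 to 372 CPM in Ly6D+Gfra2- and 227 to 313 CPM in Ly6D-Gfra2-, with Tek, Tie1, Sox17, Sox18 and Mmrn2 at 0 in all Ly6D+Gfra2+ libraries. Others of that list had counts there: Pecam1 was at 159 to 274 CPM, and Emcn reached 8.87, Cdh5 13.4 and Esam 20.2 CPM. Pecam1 was at 159 to 299 CPM in Ly6D+Gfra2- and 181 to 250 CPM in Ly6D-Gfra2-. NK and innate lymphoid markers summed to 14.7 to 140.0 CPM in Ly6D+Gfra2+, 50.7 to 101 CPM in Ly6D+Gfra2- and 62.2 to 90.2 CPM in Ly6D-Gfra2-. Most of this sum was Nkg7, at 12.6 to 134 CPM in Ly6D+Gfra2+, 48.2 to 69.3 CPM in Ly6D+Gfra2- and 50.4 to 64.7 CPM in Ly6D-Gfra2-. Ncr1, Klrk1, Gzma, Gzmb, Eomes and Tbx21 were at 0 in all Ly6D+Gfra2+ libraries. The part of such cells in the Gimap levels was not tested, and in these bulk samples fewer cells of a type and less RNA per cell cannot be told apart.

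In the RefSeq annotation of GRCm38.p6 the 8 genes span chr6:48647186-48770851, a stretch of 123666 bases, in the order Gimap8, Gimap9, Gimap4, Gimap6, Gimap7, Gimap1, Gimap5 and Gimap3. Gimap6 and Gimap3 lie on the minus strand and the other 6 on the plus strand. Gimap4 (NM_174990) occupies chr6:48684578-48692062, between Gimap9 (NM_174960, chr6:48676121-48679116) and Gimap6 (NM_153175, chr6:48701583-48708244). On one side of them lies Gimap8 (NM_212486, chr6:48647186-48660875), and on the other Gimap7 (NM_146167, chr6:48718621-48724636), Gimap1 (NM_175860, chr6:48739047-48743795), Gimap5 (NM_175035, chr6:48746197-48754200) and Gimap3 (NM_031247, chr6:48764464-48770851). All 8 genes are protein coding. Reads of Gimap4, Gimap6, Gimap8 and Gimap9 could be told from those of other genes, since 0% of the 50-base windows in their transcripts occur in another gene's transcripts. Of the Gimap1 windows 13.99% occur in transcripts of other genes, none of them a member, and of the Gimap7 windows 2.62% do, all of these in Gm28053. Of the Gimap5 windows 15.07% occur elsewhere, 9.98% in Gimap3, and of the Gimap3 windows 9.83% do, 9.07% in Gimap5. Counts of these 4 genes may thus be partly shared with others. Gimap1, Gimap5 and Gimap7 overlap the gene Gm28053, and Gimap1 also overlaps the antisense gene Gimap1os. Gm28053 lies on the same strand as these genes, so reads of their shared exons cannot be told apart. Those of Gimap1os on the opposite strand cannot either, as the strand setting is not given in the sources used here.

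The 250 bases before the start are shown for Gimap4, the member whose mean CPM differed most between the groups, for its neighbour Gimap6, the member with the highest level per transcript length in every group, and for Gimap1, a member with a small difference. Sequences are from RefSeq promoter windows of GRCm38.p6 (Gimap4 chr6:48684328-48684577, plus strand; Gimap6 chr6:48708245-48708494, minus strand; Gimap1 chr6:48738797-48739046, plus strand), and capitals mark matches to the motifs searched.
Gimap4: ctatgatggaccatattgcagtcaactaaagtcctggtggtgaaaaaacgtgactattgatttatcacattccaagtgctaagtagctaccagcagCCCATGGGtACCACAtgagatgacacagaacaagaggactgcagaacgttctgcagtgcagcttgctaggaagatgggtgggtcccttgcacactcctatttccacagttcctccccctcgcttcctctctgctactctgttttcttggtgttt
Gimap6: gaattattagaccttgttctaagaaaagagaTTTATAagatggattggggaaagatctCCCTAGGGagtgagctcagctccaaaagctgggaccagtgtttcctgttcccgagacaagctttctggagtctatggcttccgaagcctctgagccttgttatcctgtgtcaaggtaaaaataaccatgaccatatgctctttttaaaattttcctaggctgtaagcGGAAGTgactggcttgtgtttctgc
Gimap1: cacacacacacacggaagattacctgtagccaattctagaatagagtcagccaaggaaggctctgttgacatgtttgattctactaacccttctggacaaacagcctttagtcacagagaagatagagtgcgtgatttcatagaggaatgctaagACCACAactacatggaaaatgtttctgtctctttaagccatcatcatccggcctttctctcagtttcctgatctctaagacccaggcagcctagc
Each motif was searched on both strands, positions are those of a match's first base counted back from the start, and all 8 genes matched a window, Gimap8 with 2 alternative starts, which made 9 windows. The Gimap4 window held CCCNNGGG, an Ebf-type motif, at -154 and TGTGGT, a Runx motif, on the opposite strand (ACCACA in the print) at -145, with 1 base between them and no overlap. TGTGGT was also in the Gimap7 window at -79 and the Gimap1 window at -95, and in 14.05% of all 32851 mouse windows of the same length. CCCNNGGG was also in the Gimap6 window at -192 and in both Gimap8 windows, which overlap and share that 1 match, and in 11.8% of all windows. The ETS motif GGAAGT was in the Gimap6 window at -25 and in the Gimap5 window, and in 19.7% of all windows. The Gimap6 window also held TATAAA on the opposite strand (TTTATA in the print) at -219, a motif in 12.4% of all windows. The E-box CAGGTG was only in the Gimap9 window of the 9 (17.2% of all windows), the forkhead motif GTAAACA only in that of Gimap3 (3.17%), and the Ikaros motif TGGGAA in 0 of the 9 (21.6%). A match is a stretch of letters and not a measured binding site.

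Gimap4, whose product has been tied to the timing of lymphocyte death in mice and to cytokine release in human T cells, was the member with the largest difference in mean CPM between Ly6D+Gfra2+ and the other groups. It had 194, 299 and 233 CPM in Ly6D+Gfra2+ replicates 4, 5 and 6. In Ly6D+Gfra2- replicates 1, 2, 5 and 6 it had 1.62, 3.20, 19.95 and 31.0 CPM. The 6 Ly6D-Gfra2- libraries lay between 4.79 and 11.9 CPM, with a median of 6.30 CPM, and the highest of them was replicate 3. Every Ly6D+Gfra2+ library was above every other library. The Ly6D+Gfra2- libraries were the uneven group: replicates 1 and 2 (prefix P) lay below all Ly6D-Gfra2- libraries, and replicates 5 and 6 (prefix T) above all of them. The means were 242 ± 52.9 CPM in Ly6D+Gfra2+ (SD, n = 3), 13.9 ± 14.1 CPM in Ly6D+Gfra2- cells (SD, n = 4) and 7.21 ± 2.67 CPM in Ly6D-Gfra2- (SD, n = 6), or 6.28 ± 1.55 CPM without replicate 3 (SD, n = 5).

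**Figure D1:**
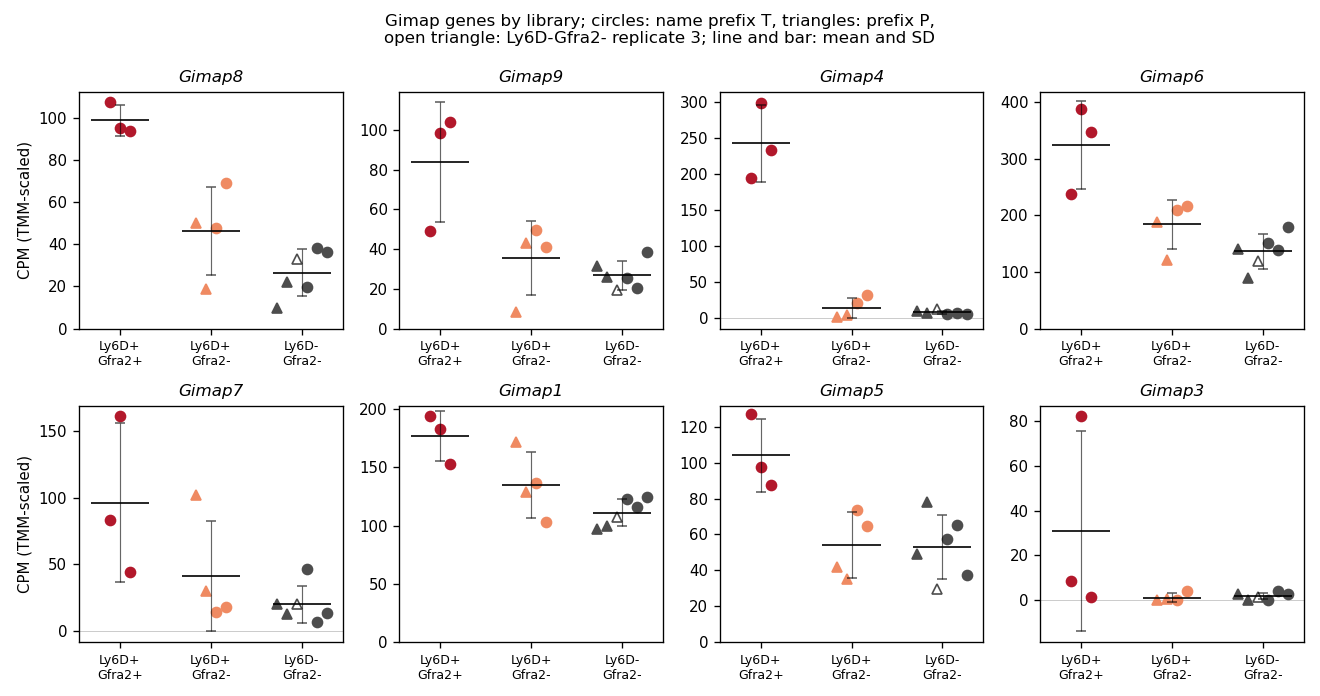
Level of each Gimap gene in each library, in CPM on linear axes that differ between panels, with panels in chromosomal order and Ly6D+Gfra2+ at the left of each. Points are libraries, and the line and bar are the mean and SD of the group; the 3 Ly6D+Gfra2+ points of Gimap4 (194 to 299 CPM) stand far above all others (at most 31.0 CPM), while the Gimap7 and Gimap3 points of that group are scattered.

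The panels of values by library show smaller differences in mean CPM for the other members. The Ly6D+Gfra2+ mean was the highest of the 3 for 8 of 8 members, and for 7 of 8 the means fell in the order Ly6D+Gfra2+, Ly6D+Gfra2-, Ly6D-Gfra2-, the exception being Gimap3. The members did not share this order equally. Gimap3 had a Ly6D+Gfra2+ mean that rested on replicate 5, Gimap7 overlapped between all groups, and Gimap5 had nearly equal means in the other groups. The share of all genes with this order was not computed, and the family was chosen on Ly6D+Gfra2+, so nothing is read from these counts.

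Among the members that lymphocytes need for survival, Gimap1, a membrane protein required for the upkeep of mature T and B cells in mice, had 194, 183 and 153 CPM in Ly6D+Gfra2+. It had 171, 129, 136.5 and 103 CPM in Ly6D+Gfra2- and 96.9 to 125 CPM in Ly6D-Gfra2-, with a median of 112 CPM. The Ly6D+Gfra2+ libraries were above all Ly6D-Gfra2- libraries and overlapped with Ly6D+Gfra2- replicate 1, the highest of its group. Gimap5, a lysosomal protein whose loss causes T-cell lymphopenia in the BB rat, had 127, 97.7 and 87.5 CPM in Ly6D+Gfra2+. It had 41.8, 35.4, 73.8 and 65.0 CPM in Ly6D+Gfra2- and 29.9 to 78.3 CPM in Ly6D-Gfra2-, with a median of 53.2 CPM. All 3 Ly6D+Gfra2+ libraries were above every other library, while the other 2 groups had nearly equal means, of 54.0 ± 18.3 CPM in Ly6D+Gfra2- cells (SD, n = 4) and 53.0 ± 17.9 CPM in Ly6D-Gfra2- cells (SD, n = 6).

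Gimap3, close in sequence to Gimap5 and known in mice as a modifier of how mitochondrial genomes segregate in blood cells, was the least measured member. It had 8.24, 82.3 and 1.41 CPM in Ly6D+Gfra2+, so that 688 of the group's 773 counts came from replicate 5. It had 0, 0.203, 0 and 3.75 CPM in Ly6D+Gfra2- and 0 to 3.71 CPM in Ly6D-Gfra2-, with a median of 1.78 CPM. The groups overlapped, and the mean of 30.6 ± 44.8 CPM in Ly6D+Gfra2+ (SD, n = 3) rested on that 1 library.

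Gimap6, which binds a Gabarap family protein of the autophagy machinery, had 238, 389 and 348 CPM in Ly6D+Gfra2+. It had 188, 122, 210.2 and 217 CPM in Ly6D+Gfra2- and 88.8 to 180.0 CPM in Ly6D-Gfra2-, with a median of 139.6 CPM. All Ly6D+Gfra2+ libraries were above the others. Gimap8, the largest member, with repeated GTP-binding domains, had 108, 95.3 and 93.9 CPM in Ly6D+Gfra2+, the closest agreement of any member in that group, with a coefficient of variation of 7.64%. It had 50.1, 18.6, 48.0 and 69.4 CPM in Ly6D+Gfra2- and 9.54 to 38.3 CPM in Ly6D-Gfra2-, with a median of 27.6 CPM. Here too every Ly6D+Gfra2+ library was above every other library.

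Gimap9 had 49.2, 98.4 and 104 CPM in Ly6D+Gfra2+. It had 8.37, 43.1, 49.8 and 41.1 CPM in Ly6D+Gfra2- and 19.6 to 38.7 CPM in Ly6D-Gfra2-, with a median of 25.6 CPM. Ly6D+Gfra2+ replicate 4 lay just under the highest Ly6D+Gfra2- library, so these groups overlapped, while all Ly6D-Gfra2- libraries were below Ly6D+Gfra2+. Gimap7, whose human form hydrolyses GTP as a dimer, had 83.4, 161 and 44.3 CPM in Ly6D+Gfra2+. It had 102, 30.1, 13.8 and 17.4 CPM in Ly6D+Gfra2- and 6.27 to 46.5 CPM in Ly6D-Gfra2-, with a median of 16.5 CPM. It overlapped between all groups, and the highest library outside Ly6D+Gfra2+, Ly6D+Gfra2- replicate 1, lay above 2 of the 3 Ly6D+Gfra2+ libraries.

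To set members against each other, levels were divided by transcript length. The summed level of the 8 genes was 692 ± 138 CPM per kb in Ly6D+Gfra2+ (SD, n = 3; 592, 849 and 636), 315 ± 49.6 in Ly6D+Gfra2- (SD, n = 4; 243 to 358) and 235 ± 29.5 in Ly6D-Gfra2- (SD, n = 6; 202 to 271). The lowest Ly6D+Gfra2+ library was above all others, and this was still so with Gimap4 left out, at 484 to 683 CPM per kb in Ly6D+Gfra2+, 242 to 357 in Ly6D+Gfra2- and 198 to 268 in Ly6D-Gfra2-. Gimap4 made up 19.4 ± 1.07% of the length-scaled sum in Ly6D+Gfra2+ (SD, n = 3), 2.40 ± 2.37% in Ly6D+Gfra2- (SD, n = 4) and 1.76 ± 0.81% in Ly6D-Gfra2- (SD, n = 6). By mean CPM per kb Gimap6 ranked 1 in all 3 groups, at 204 ± 48.8 in Ly6D+Gfra2+, 116 ± 27.1 in Ly6D+Gfra2- and 85.6 ± 19.2 in Ly6D-Gfra2-. Gimap4 ranked 2 in Ly6D+Gfra2+ and 7 in both other groups, and Gimap3 ranked 8 in all. In Ly6D+Gfra2+ Gimap4 (134 ± 29.3 CPM per kb) and Gimap1 (118 ± 14.2 CPM per kb), which were next to each other in this order of levels, did not differ beyond their spread, nor did Gimap7 (75.9 ± 46.9), Gimap9 (60.5 ± 21.7) and Gimap5 (53.3 ± 10.5).

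**Figure D2:**
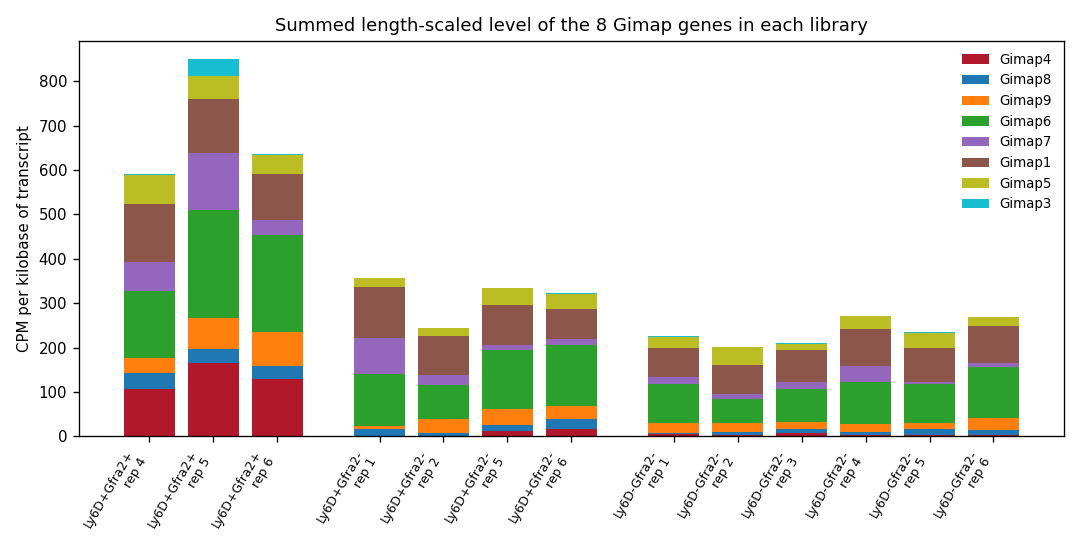
Stacked bars give the length-scaled level of the 8 Gimap genes in each library, in CPM per kilobase of transcript, with Gimap4 at the base and Ly6D+Gfra2+ at the left. The 3 Ly6D+Gfra2+ bars reach 592 to 849 and are the only ones with a broad Gimap4 segment, and the other bars stay at or below 358.

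The stacked bars show both differences at once, a taller family total and a Gimap4 segment that is a thin line elsewhere. The thickest Gimap4 segment outside Ly6D+Gfra2+ was 5.33% of the total, in Ly6D+Gfra2- replicate 6.

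The comparison of Ly6D+Gfra2- with Ly6D-Gfra2- asks what goes with Ly6D in the absence of Gfra2, and it does not contain the group on which the family was chosen. No Gimap gene passed the test: 0 of 8 were called by the edgeR quasi-likelihood test at a Benjamini-Hochberg adjusted p under 0.05, against 0.00% of all 12722 genes tested, and every member's adjusted p was 0.9995. At an unadjusted p under 0.05 there were 0 of 8 members and 599 of all genes. DESeq2 called 0 of 8, with 1 at an unadjusted p under 0.05, and limma voom called 0 of 8, with 0 at that level. The log2 fold changes were 0.79 (SE 0.41) for Gimap8, 0.43 (SE 0.21) for Gimap6, 0.51 (SE 0.71) for Gimap4 and 0.28 (SE 0.22) for Gimap1. Those of Gimap7 and Gimap9 were 0.82 (SE 0.66) and 0.36 (SE 0.45), that of Gimap5 was -0.02 (SE 0.34) and that of Gimap3 was -1.52 (SE 1.60). In 0 of 8 members did all libraries of one group lie above those of the other, against 0.582% of all genes with Ly6D+Gfra2- higher and 0.951% with it lower. The median over members was 0.40, with 6 positive and 2 negative, beside a median of -0.01 over all genes. Without Ly6D-Gfra2- replicate 3 the test called 0 of 8, against 0.127% of all genes, with 1 at an unadjusted p under 0.05, that of Gimap8, and every member's edgeR adjusted p was 0.9996. The SEs of 0.21 to 1.60 limit what could be seen, so the result does not show that the groups have equal levels.

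Within each prefix the Gimap4 values of this comparison ran in opposite directions. Among prefix T libraries Gimap4 had 19.95 and 31.0 CPM in Ly6D+Gfra2-, against 5.23, 5.94 and 4.79 CPM in Ly6D-Gfra2-, without overlap. Among prefix P libraries it had 1.62 and 3.20 CPM in Ly6D+Gfra2-, against 8.75, 6.67 and 11.9 CPM in Ly6D-Gfra2-, also without overlap and whether or not replicate 3 is counted. The log2 fold change was 2.26 (SE 0.40) within prefix T, with an edgeR adjusted p of 0.136, and -1.91 (SE 1.23) within prefix P, with an edgeR adjusted p of 0.790. The 2 values differed by 4.16 (SE 1.22) in a fit with a group-by-prefix term, chosen after the values were seen; the edgeR p was 0.00416 and the adjusted p 0.592, with 0 of 12140 genes called and 872 at an unadjusted p under 0.05. Without replicate 3 the difference was 3.93 (SE 1.33), with an edgeR adjusted p of 0.653. What the prefix stands for is not given, so its part in the Ly6D+Gfra2- spread of Gimap4 was not tested further.

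In the other members the values fell differently. Within prefix T, 4 of 8 members lay higher in Ly6D+Gfra2- without overlap, which were Gimap4, Gimap6, Gimap8 and Gimap9, against 12.04% of all genes. Within prefix P, 2 of 8 lay higher without overlap, Gimap1 and Gimap7, against 10.01% of all genes, and 1 of 8 lay lower, Gimap4, against 12.03%. Gimap7 went opposite to Gimap4, with a log2 fold change of -0.49 (SE 0.83) within prefix T and 1.92 (SE 0.64) within prefix P, a difference of -2.42 (SE 1.10) with an edgeR adjusted p of 0.689. For Gimap6 the values were close, at 0.45 (SE 0.29) within prefix T and 0.42 (SE 0.35) within prefix P.

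**Figure D3:**
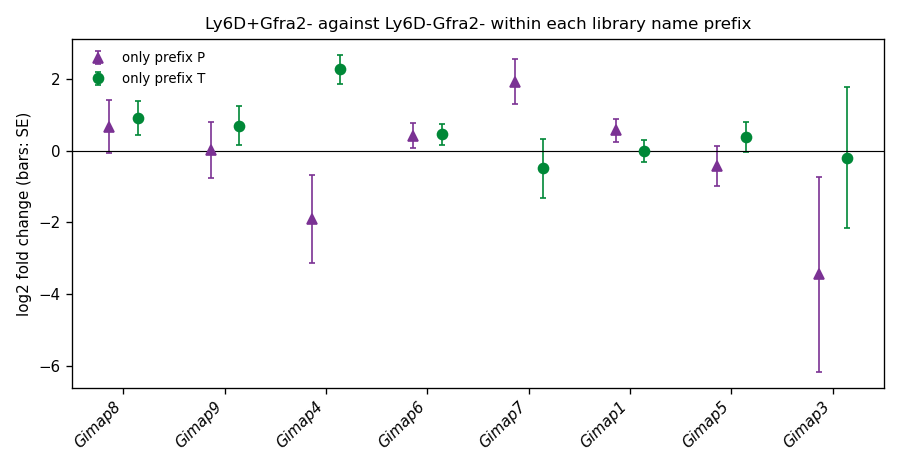
Log2 fold change of Ly6D+Gfra2- against Ly6D-Gfra2-, fitted within prefix P (triangles) and within prefix T (circles), with SE bars and genes in chromosomal order. The Gimap4 points lie on opposite sides of 0 (-1.91 and 2.26) and those of Gimap7 do so the other way round (1.92 and -0.49), while the Gimap6 points nearly coincide.

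The points within each prefix show that Gimap4 and Gimap7 differed most between the prefixes among the members with an SE under 2, Gimap3 having an SE of 2.72 within prefix P.

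Ly6D+Gfra2+ was set against both other groups, in comparisons that share the Ly6D+Gfra2+ libraries and are not independent of each other. Gimap4 was called higher in both. Its log2 fold change was 4.03 (SE 0.74) against Ly6D+Gfra2- and 4.54 (SE 0.87) against Ly6D-Gfra2-, or 4.64 (SE 0.83) without Ly6D-Gfra2- replicate 3. It was the 1 of 8 members called against Ly6D+Gfra2-, where 0.204% of all genes were called higher, and the 1 of 8 called against Ly6D-Gfra2-, where 0.928% were. Without replicate 3 it was again the 1 member called in each, beside 0.159% and 0.820% of all genes. Since the rule rests on this level, nothing is read from these counts. The main fit takes the prefix to act alike in each group, and Ly6D+Gfra2+ has only prefix T libraries. Between Ly6D+Gfra2- and Ly6D-Gfra2- the Gimap4 values ran in opposite directions by prefix, as given above. The main fold changes of Gimap4 and their SEs rest on that assumption. Among prefix T libraries alone the Gimap4 values were 3.24 (SE 0.45) and 5.50 (SE 0.42), both called. The call against Ly6D+Gfra2- was lost without Ly6D+Gfra2+ replicate 5 (3.85), without Ly6D+Gfra2- replicate 2 (3.79) or 5 (4.225), or without Ly6D-Gfra2- replicate 2 (4.03), 4 (3.96) or 5 (3.96), and also in a fit of only these 2 groups (3.25) and with the replicate number as a block in place of the prefix (4.23). The call against Ly6D-Gfra2- was lost without Ly6D-Gfra2- replicate 4 (4.035), 5 (4.08) or 6 (4.01).

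For the other 7 members the log2 fold change against Ly6D+Gfra2- and that against Ly6D-Gfra2- were both positive and not called. They were 0.61 (SE 0.28) and 1.05 (SE 0.26) for Gimap6, 0.82 (SE 0.52) and 1.61 (SE 0.49) for Gimap8, and 1.07 (SE 0.57) and 1.43 (SE 0.55) for Gimap9. Gimap7 had 1.70 (SE 0.88) and 2.53 (SE 0.70), Gimap1 0.38 (SE 0.29) and 0.66 (SE 0.26), and Gimap5 0.81 (SE 0.43) and 0.79 (SE 0.41). Gimap3 had 4.68 (SE 1.85) and 3.17 (SE 1.95), which became 2.03 and 0.47 without Ly6D+Gfra2+ replicate 5, and the first became 8.203 without Ly6D+Gfra2- replicate 6. Gimap6, Gimap7 and Gimap8 stood near the threshold against Ly6D-Gfra2-: DESeq2 called all 3 along with Gimap4, and the fit with no filter on low counts called Gimap6 and Gimap7 with it. Of all genes, DESeq2 called 378 of 16162 higher in that comparison and the fit with no filter 203 of 16162, against 118 of 12722 in the main fit. The Gimap7 value became 3.61 and was called when Ly6D-Gfra2- replicate 4 was left out, where 37 of 12619 genes were called higher.

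All Ly6D+Gfra2+ libraries lay above all Ly6D+Gfra2- libraries for 4 of 8 members (Gimap4, Gimap5, Gimap6 and Gimap8), against 4.001% of all genes. They lay above all Ly6D-Gfra2- libraries for 6 of 8 (all but Gimap3 and Gimap7), against 4.03% of all genes, or 4.61% without replicate 3, with the same 6 members. Within prefix T the counts were 6 of 8 against Ly6D+Gfra2- (8.66% of all genes) and 6 of 8 against Ly6D-Gfra2- (7.22%). The median over members was 0.95 against Ly6D+Gfra2- and 1.52 against Ly6D-Gfra2-, beside medians of 0.03 and 0.01 over all genes. These counts and medians come from the comparisons that the choice of the family used, and nothing is read from them.

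**Figure D4:**
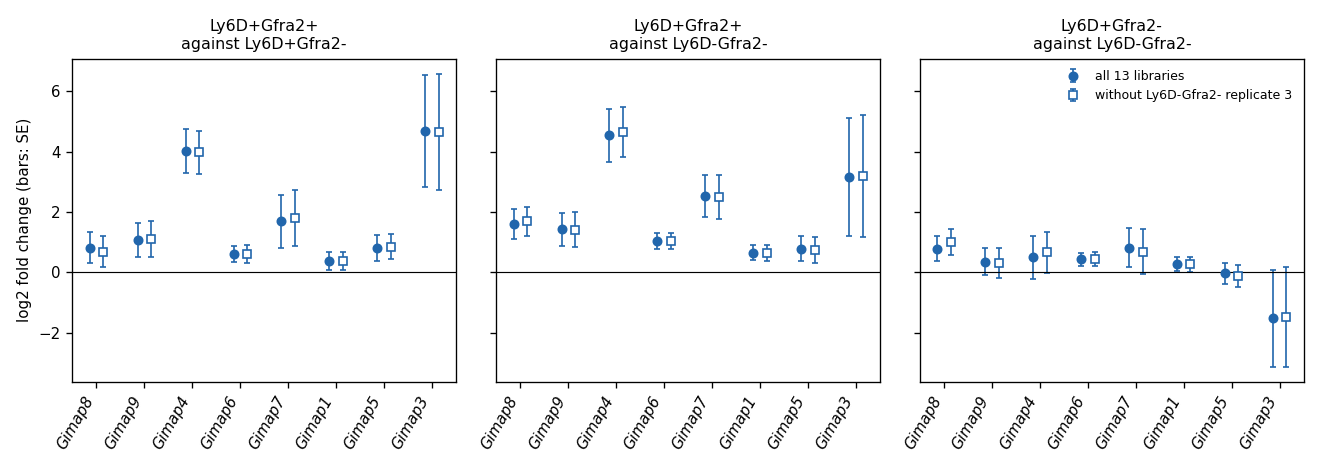
Log2 fold changes of the 8 members with SE bars in the 3 comparisons, from all 13 libraries (filled) and without Ly6D-Gfra2- replicate 3 (open), with genes in chromosomal order. In both Ly6D+Gfra2+ panels all 8 points are above 0 and Gimap4 (4.03 and 4.54) stands well over its neighbours Gimap9 and Gimap6, whereas in the right panel the points run from -1.52 to 0.82.

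The fold changes in chromosomal order show a large difference beside small ones: Gimap4 lies between Gimap9 and Gimap6, whose values against Ly6D+Gfra2- were 1.07 and 0.61. Leaving out replicate 3 moved each point by less than its SE.

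Genes around the cluster were listed to see where the difference ends. Of 12 genes listed as lying beside it, 10 had a row and 7 were tested, or 8 by DESeq2 without the filter. Of these, 0 were called by edgeR, DESeq2 or limma voom in any of the 3 comparisons. At an unadjusted p under 0.05 edgeR had 1, Zfp775 in Ly6D+Gfra2- against Ly6D-Gfra2-, and DESeq2 and limma voom had at most 1 and 2 in a comparison. Their median log2 fold change was -0.12 against Ly6D+Gfra2- and -0.25 against Ly6D-Gfra2- for Ly6D+Gfra2+, and -0.29 for Ly6D+Gfra2- against Ly6D-Gfra2-. On the Gimap3 side, Tmem176b, a membrane protein of immature dendritic cells, averaged 93.6 CPM in Ly6D+Gfra2+, 95.1 CPM in Ly6D+Gfra2- cells and 133 CPM in Ly6D-Gfra2-, with log2 fold changes of -0.12 (SE 0.46) and -0.64 (SE 0.45) for Ly6D+Gfra2+ against them. On the Gimap8 side, the transcribed pseudogene AI854703, which was outside the list, was at 0 in all Ly6D+Gfra2+ libraries, averaged 2.38 CPM in Ly6D+Gfra2- cells and 5.56 CPM in Ly6D-Gfra2-, and was not called.

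Proteins that act with GIMAPs were examined as a list of 14 reported partners and the Bcl2 and autophagy proteins linked to them, all of which passed the count filter. The 1 gene called was Bcl2, whose product keeps lymphocytes alive by holding back the mitochondrial death pathway, and it was lower in Ly6D+Gfra2+ against both other groups. It averaged 130.0 ± 102 CPM in Ly6D+Gfra2+ (SD, n = 3; 51.0 to 245 CPM), 907 ± 336 CPM in Ly6D+Gfra2- (SD, n = 4; 608 to 1317 CPM) and 714 ± 238 CPM in Ly6D-Gfra2- (SD, n = 6; 402 to 1024 CPM). All 3 Ly6D+Gfra2+ libraries were below every other library, while the other 2 groups overlapped. The log2 fold change was -2.32 (SE 0.40) against Ly6D+Gfra2- and -1.995 (SE 0.38) against Ly6D-Gfra2-, where 0.204% and 0.464% of all genes were called lower. The call against Ly6D+Gfra2- was lost without Ly6D+Gfra2- replicate 5 (-2.37) or 6 (-2.31), that against Ly6D-Gfra2- without Ly6D-Gfra2- replicate 4 (-1.79), and both among prefix T libraries alone (-2.29 and -2.02) and in fits of only the 2 groups compared (-2.28 and -2.02). The other 13, among them Bax, a pore-forming death protein, and the autophagy genes Gabarap, Gabarapl1 and Gabarapl2, were not called in any comparison. Between Ly6D+Gfra2- and Ly6D-Gfra2- edgeR called 0 of 14, with 0 at an unadjusted p under 0.05, as DESeq2 did, and limma voom called 0 with 1 at that level, the smallest unadjusted edgeR p being 0.0693 (adjusted p 0.999), for Ctnnb1.

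Other GTPase families of immune cells, the interferon-induced Irg, Gbp and Mx genes, showed no called difference: 16 of 17 listed genes were tested, and edgeR, DESeq2 and limma voom called 0 in any of the 3 comparisons, with at most 2, 4 and 2 at an unadjusted p under 0.05 in a comparison. Their median log2 fold change was 0.03 for Ly6D+Gfra2+ against Ly6D+Gfra2-, -0.11 against Ly6D-Gfra2- and -0.06 for Ly6D+Gfra2- against Ly6D-Gfra2-. Those with the smallest p for Ly6D+Gfra2+ were the guanylate-binding gene Gbp8 against Ly6D+Gfra2-, at -1.10 (SE 0.49), and Irgm2 of the immunity-related GTPases against Ly6D-Gfra2-, at -1.84 (SE 0.74), both not called. Of 11 survival and quiescence regulators, 1 was called higher and 1 lower in Ly6D+Gfra2+ against Ly6D+Gfra2-, beside 0.204% of all genes called in each direction, and 3 higher and 2 lower against Ly6D-Gfra2-, beside 0.928% and 0.464% of all genes. In Ly6D+Gfra2- against Ly6D-Gfra2-, edgeR called 0 of 11, with 3 at an unadjusted p under 0.05, and DESeq2 and limma voom called 0, with 3 and 5 at that level. Foxo1, a transcription factor that keeps resting lymphocytes and drives Il7r, was called higher in both, at 684 ± 260 CPM in Ly6D+Gfra2+ (SD, n = 3), 155 ± 67.7 CPM in Ly6D+Gfra2- cells (SD, n = 4) and 67.6 ± 27.1 CPM in Ly6D-Gfra2- (SD, n = 6). Its call against Ly6D+Gfra2-, with a log2 fold change of 1.82 (SE 0.38), was lost without replicate 4 or 5 of Ly6D+Gfra2+, replicate 2, 5 or 6 of Ly6D+Gfra2-, or replicate 1, 2, 4, 5 or 6 of Ly6D-Gfra2- (1.49 to 1.93). It was also lost with limma voom (1.62), library size alone (1.62), the replicate block (1.715), prefix T alone (1.71) and only the 2 groups compared (1.72), whereas that against Ly6D-Gfra2-, at 2.97 (SE 0.36), held without any 1 library. Without Ly6D-Gfra2- replicate 3 Foxo1 was also called in Ly6D+Gfra2- against Ly6D-Gfra2-, at 1.42 with an edgeR adjusted p of 0.0461, against 1.15 (SE 0.29) and an edgeR adjusted p of 0.807 with all libraries. Against Ly6D-Gfra2- the receptor gene Il7r (1.19, SE 0.24) was also called higher, and the T-lineage factor gene Tcf7 was called lower, at 0 to 0.108 CPM in Ly6D+Gfra2+ and 4.57 to 22.4 CPM in Ly6D-Gfra2-. The Il7r call was lost without Ly6D+Gfra2+ replicate 4 (1.03) or Ly6D-Gfra2- replicate 4 (1.10), 5 (1.07) or 6 (1.27), or with library size alone (0.937). The Tcf7 call was lost without Ly6D+Gfra2+ replicate 5 or Ly6D-Gfra2- replicate 5 or 6, and with limma voom, the replicate block or prefix T alone.

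The genes most like Gimap4 were found by the root mean square difference in centred log2 CPM over the 13 libraries, restricted to genes that averaged 5 CPM or more. They were Itsn1, a scaffold of endocytosis (1.18), Zhx2, a zinc finger and homeobox repressor (1.29), Rag1, the V(D)J recombinase subunit (1.33), Dock9, an activator of Cdc42 (1.34), and Arl5c, an ARF-like GTPase (1.35). Itsn1 averaged 401 CPM in Ly6D+Gfra2+, 98.0 CPM in Ly6D+Gfra2- cells and 48.5 CPM in Ly6D-Gfra2-, and its Ly6D+Gfra2- libraries were spread between 11.5 and 169 CPM. The other Gimap genes ranked behind these, in ranks among all 12721 other genes tested at any level: Gimap9 at 89 with a difference of 1.69, Gimap8 at 130 (1.76), Gimap6 at 345 (1.93), Gimap5 at 371 (1.93), Gimap3 at 613 (2.01), Gimap7 at 1232 (2.13) and Gimap1 at 1756 (2.20). This measure covers the size as well as the shape of a pattern, and it was taken over libraries that include the group on which Gimap4 was chosen.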

How the data were processed

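RNA sequencing of total RNA was deposited as raw counts per RefSeq identifier in 1 file for each of 13 libraries, per the file headers. Per the labels' protocols, RNA was isolated with a Qiagen micro kit and libraries were made with Nugen Ovation kits. The submitters' processing notes name FastQC, HISAT, TopHat, HOMER, DESeq and mm10, without roles or versions. Strandedness, multi-mapping reads and the annotation release are not given in the sources used here.

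Of 24072 identifiers, 23815 were named from the RefSeq table of GRCm38.p6, 144 from GENCODE M21 and 113 not at all. Counts as deposited were tested in R 4.3.3 with the edgeR 4.0.16 quasi-likelihood test, 2-sided, with Benjamini-Hochberg adjustment over all 12722 genes that filterByExpr kept (minimum count 10, minimum total 15). All 13 libraries entered 1 fit with terms for group and name prefix and TMM scaling, and all 8 members passed the filter. Alternatives used DESeq2 1.42.0 and limma 3.58.1. The fit was tested on simulated data, where it missed part of the changed genes at each fold size in each comparison. Levels are CPM on TMM-scaled totals, and CPM per kb uses GENCODE transcript lengths. No 2 libraries of 1 group agreed within sampling noise.

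All 8 members were named. From the other lists, called genes were named and otherwise up to 3 with the smallest p. Values of some listed genes are not reported here. The 5 genes most like Gimap4 were named by the measure given with them. AI854703, Tmem176a, Tmem176b and genes named only as list members were named after their values were seen. The members and lists were chosen with earlier results of these data known.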

Additional observations from a re-analysis of the deposited data

Results flagged for a closer look

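In the groups of 4 and 6 libraries, 16 combinations of gene and group were examined for a library far from the rest, and 2 had one. Chance alone gives about 1 in 20. Gimap3 had 3.75 CPM in Ly6D+Gfra2- replicate 6, the highest of that group, with a gap to the next library of 0.946 of the group's range (limit 0.829). Gimap7 had 46.5 CPM in Ly6D-Gfra2- replicate 4, the highest of that group, with a gap of 0.657 of the range (limit 0.625).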

How the results depend on the processing

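In Ly6D+Gfra2- against Ly6D-Gfra2-, 0 of 8 members were called in all 26 alternatives. Signs of uncalled values turned there: Gimap1 to -0.013, Gimap7 to -0.49 and Gimap5 to 0.375 within prefix T; Gimap4 to -1.91 within prefix P, or -1.675 also without Ly6D-Gfra2- replicate 3, where Gimap9 was -0.15; and Gimap5 to 0.10 with limma voom and 0.027 with no prefix term. Leaving out 1 library gave -0.034 to 1.27 for Gimap4, -0.16 to 0.19 for Gimap5 and -0.011 to 0.72 for Gimap9. In Ly6D+Gfra2+ against Ly6D+Gfra2- the count of called members, 1, became 0 in the fit of only the 2 groups and 0 to 1 with 1 library left out. Against Ly6D-Gfra2- it became 4 with DESeq2, 3 with no filter, 2 with at least 5 CPM in 3 libraries, 3 with no prefix term and 0 to 2 with 1 library left out. Of all genes, 378 of 16162 were called higher with DESeq2 and 203 of 16162 with no filter. The counts were 134 of 11105 with at least 5 CPM in 3 libraries and 163 of 12722 with no prefix term, against 118 of 12722 in the main fit. The cause of these shifts was not tested. Without Ly6D-Gfra2- replicate 4 the 1 member called against Ly6D-Gfra2- was Gimap7, not Gimap4. All members tested stayed positive in both Ly6D+Gfra2+ comparisons under every alternative, with 7 of 8 tested at the filter of 5 CPM in 3 libraries. These alternatives reuse libraries of the group on which the family was chosen, so nothing is read from the signs. Library size alone moved the median of all genes to -0.15 against Ly6D+Gfra2- and -0.25 against Ly6D-Gfra2-; relative to it the smallest member value was 0.35 and 0.63, both for Gimap1.

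Whether replicate numbers pair the samples is not stated. In the T names a tag holds the replicate number, and the labels do not explain it. Same-numbered libraries had correlations of -0.0439 to 0.139 after group means were removed. The same number was the best match for Ly6D+Gfra2- replicate 6 and Ly6D+Gfra2+ replicate 4, each against Ly6D-Gfra2-, and another number was for the rest. With so few libraries per group, low correlations cannot decide whether the samples are paired. With the replicate number as a block in place of the prefix, 0 members were called against Ly6D+Gfra2- (also 0 without Ly6D-Gfra2- replicate 3) and 1 against Ly6D-Gfra2-. The replicate block without replicate 3 and prefix P without replicate 3 were chosen after seeing the data.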
